A study of Mus musculus with 2 samples.

Results

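The 10 genes Ager, Hopx, Rtkn2, Aqp5, Clic5, Akap5, Emp2, Pdpn, Igfbp2 and Cav1 are markers of alveolar type 1 (AT1) cells. They were taken by symbol from the 32285 features measured, and all 10 had counts in both lung sections. Visium captures polyadenylated RNA on an array of barcoded spots laid under a tissue section, so that each spot reads a small region holding several cells. Female Balb/c mice, 6 to 8 weeks old, were used: 1 carried 4T1 cells, a mouse mammary carcinoma line that spreads spontaneously to the lung, injected orthotopically (the m.f.p. model), and the control was left untreated. Lungs were taken 21 to 23 days after inoculation in the tumour-bearing mice, and 1 fresh-frozen section was read for each condition (control lung and metastatic lung). Each condition therefore rests on 1 section, spots are not replicates, and no test was possible; intervals below cover counting error only. Section, animal, library and condition cannot be told apart.

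AT1 cells are the thin, widely spread cells that cover most of the alveolar surface and let gas pass to the capillaries pressed against them. Alveolar type 2 (AT2) cells make surfactant and renew the AT1 layer, passing through a transitional state marked by Krt8. Few genes are made by AT1 cells alone: podoplanin is also carried by lymphatic endothelium, mesothelium and fibroblasts, caveolin-1 by endothelium, smooth muscle and fibroblasts, and aquaporin-5 by glands and airway epithelium.

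The control section had 1888 spots and 20329126 counts, with a median of 9643.5 per spot, and the metastatic section 1110 spots and 14657881 counts, with a median of 11334.5. The sections share 858 spot barcodes, which mark array positions and not cells. Scgb1a1, the secretoglobin of club cells, took 15.2% of the counts of the control lung and 18.4% of those of the metastatic lung. Levels are given as counts per 10000 counts of the same spots (CP10k), with an exact 95% Poisson interval. Ratios of levels carry the exact 95% interval of the split of counts.

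Tumour spots were found without the 10 genes, as the cluster of 5 with the highest mean z-score over markers of 4T1 cells. That list separated the clusters only slightly, with a mean z-score of 0.18 against 0.12 in both of the next clusters. Of its markers, Krt14 and Serpinb5 had 0 counts both in the tumour spots and far from them. Sfn was lower in the tumour spots, at 19.9% of far (4 and 110 counts), Cdkn2a had 2 counts there and 18 far, and Phlda2 0 and 18. Krt8 and Krt18, keratins also made by lung epithelium, stood at 164% and 196% of their level far from tumour. Hmga2, a chromatin protein silent in most adult tissue, had 31 counts there, against 5 counts in the much larger far area and 0 in the control lung. Outside the tumour spots the metastatic section held 20 Hmga2 counts in all, 11 of them in another cluster of 102 spots. The summed 4T1 list was at 1.49 times far within 100 µm of the tumour spots and at 1.74 times in them. Whether spots beside the tumour hold cancer cells was not tested. Mki67, a marker of dividing cells, was at 1.10 CP10k in the tumour spots and at 0.0809 far from them.

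The tumour cluster held 98 spots, in groups of 80 and 14 and 4 spots alone. An interior spot had tumour spots at all 6 neighbouring positions (33 spots), and the other 65 were edge spots. The spots outside were ordered by distance to the nearest tumour spot: 55 within 100 µm, 50 at 100 to 200 µm, 56 at 200 to 300 µm, 126 at 300 to 500 µm, 335 at 500 to 900 µm and 390 beyond 900 µm. Spots within 200 µm are called near (105 spots) and those beyond 500 µm far (725 spots).

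Of the 10 genes, 9 had a promoter in the RefSeq table used (build GRCm38.p6), with 12 windows in all of 250 bases before a start. The sequences of 3 of them are shown 5′ to 3′: Ager as the gene that serves below as the yardstick, Hopx as a gene with a motif match, and Pdpn as the gene least reduced beside the tumour. Capitals mark a match, on the other strand, to CTCAAG, the core bound by NKX2-1, the lung epithelial homeodomain factor.
Ager, chr17:34597600-34597849, plus strand: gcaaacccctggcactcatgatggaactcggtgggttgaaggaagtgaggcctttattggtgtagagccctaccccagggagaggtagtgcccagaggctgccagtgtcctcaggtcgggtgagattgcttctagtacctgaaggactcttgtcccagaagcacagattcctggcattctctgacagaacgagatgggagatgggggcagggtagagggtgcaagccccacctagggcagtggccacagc
Hopx, chr5:77115124-77115373, minus strand: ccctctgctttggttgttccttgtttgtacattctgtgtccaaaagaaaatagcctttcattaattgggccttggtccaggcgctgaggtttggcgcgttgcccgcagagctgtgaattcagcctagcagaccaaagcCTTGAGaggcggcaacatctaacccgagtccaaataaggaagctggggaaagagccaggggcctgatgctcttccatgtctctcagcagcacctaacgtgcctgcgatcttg
Pdpn, chr4:143299565-143299814, minus strand: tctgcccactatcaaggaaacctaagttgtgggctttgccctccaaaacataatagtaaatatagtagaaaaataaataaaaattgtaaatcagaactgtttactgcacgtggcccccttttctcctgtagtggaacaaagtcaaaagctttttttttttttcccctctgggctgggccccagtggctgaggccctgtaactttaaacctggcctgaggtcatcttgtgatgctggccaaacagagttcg
On both strands, the NKX2-1 core was found among the 12 windows in 1 of Hopx and 1 of Igfbp2, and in 13.3% of the 32851 windows of all genes. The Igfbp2 match lay in a window inside the gene that overlaps an exon (chr1:72825137-72825386), not in the window before the gene. The Ager window shown also lies inside the Ager locus given below. The core GGAATG, bound by TEAD factors and searched on both strands as well, was found in 0 of the 12 windows and in 12.6% of all windows. A match describes these letters and is no evidence of binding.

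The 10 genes together were at 68.2 CP10k in the control lung and 52.6 CP10k (52.2 to 53.1) in the far spots. Their summed level was 54.0 CP10k at 300 to 500 µm, 45.4 at 200 to 300 µm, 30.5 at 100 to 200 µm and 16.3 within 100 µm. In the tumour it was 5.09 CP10k in the edge spots and 2.85 in the interior spots. The level thus stood at 103%, 86.2%, 57.9% and 31.0% of the far level from the outer to the inner ring, and at 8.17% in all tumour spots. Single far spots ranged from 0 to 160 CP10k with a median of 61.1, and single spots within 100 µm from 3.51 to 68.2 with a median of 12.9, so that the areas overlapped. A spot mixes cells, and fewer AT1 cells and less AT1 RNA per cell cannot be told apart.

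**Figure D1:**
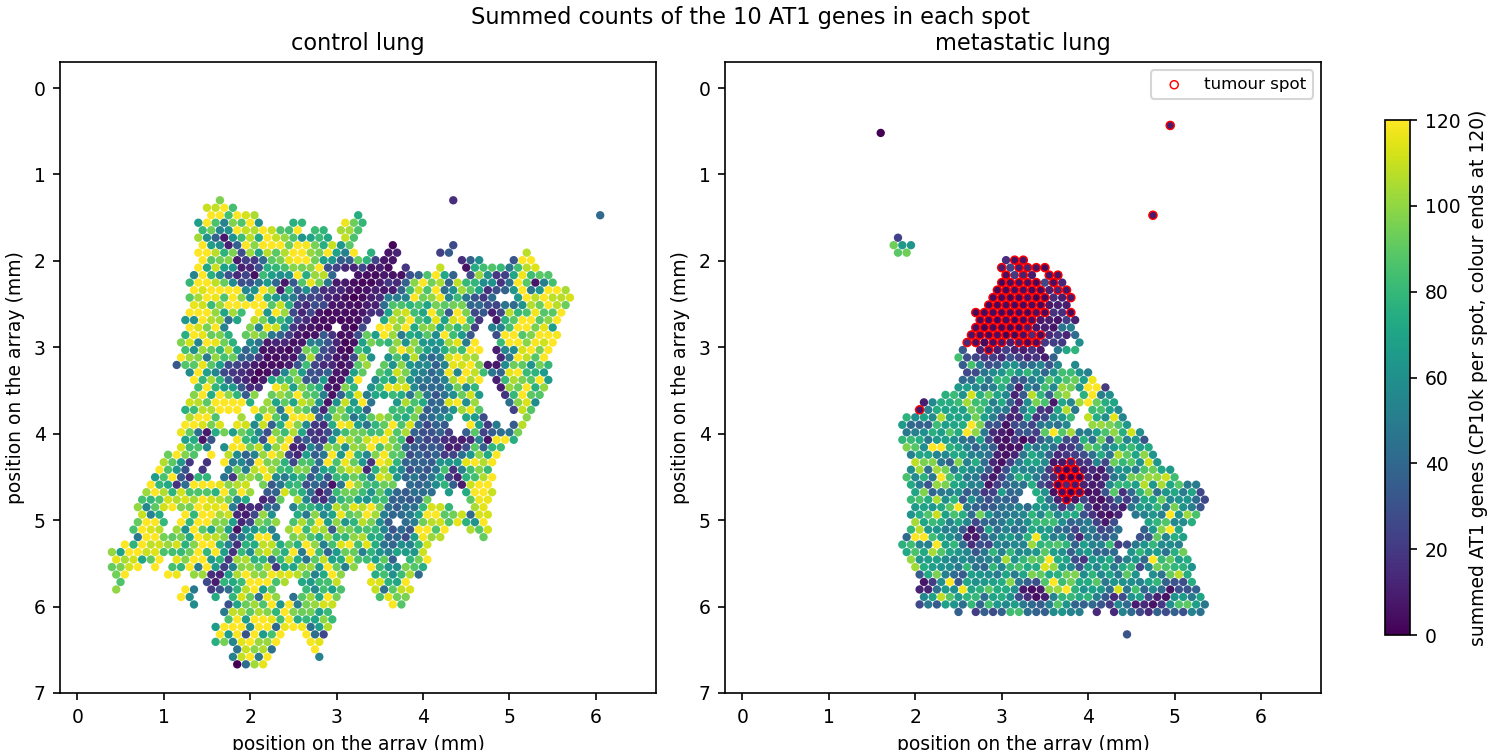
Spots of the control lung (left) and the metastatic lung (right) at their positions on the array (mm), coloured by the summed counts of the 10 AT1 genes per 10000 counts of the spot; red rings mark the 98 tumour spots. Low values fill the groups of 80 and 14 tumour spots and the spots around them, and both sections also hold dark bands away from any tumour.

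Near spots were at 0.443 times the far level over the 10 genes (0.428 to 0.459). By gene, 9 of 10 were lower by at least 1.5 times and 8 of 10 by at least 2 times, where 13.4% and 7.12% of the 11358 genes with at least 50 counts were that much lower and 34.3% were higher by at least 1.5 times. The median log2 ratio was -1.14 over the 10 genes and 0.33 over all genes. Airway secretions weigh on these shares, since Scgb1a1 took 7.34% of near counts and 23.8% of far counts. When 454 abundant genes did not count toward the library size, the median of all genes was -0.08 and that of the 10 genes -1.55, and all 10 lay below the all-gene median either way.

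How far the near level was lowered depended on which spots were taken as tumour. With only the 77 tumour spots that have at least 3 tumour neighbours, the summed near level was 0.278 times the far level. Pdpn was then also lower by at least 1.5 times, at 0.511. Dropped tumour spots within 200 µm of a kept one counted as near here, so these values partly describe tumour spots. Around the group of 80 spots alone the near level was 0.324 times the far level (47 spots), and around the group of 14 it was 0.471 (42 spots). Within 100 µm the values were 0.267 and 0.304. The genes were thus low around both groups, and the groups came closer to each other in the innermost ring. Near spots of the 4 lone tumour spots belong to neither group and were not read alone. They enter the pooled near level, the pooled rings and the ratios built on these. Within 100 µm the groups held 30 and 18 of the 55 spots, and both group values lie below the pooled 0.310.

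Ager, the receptor for advanced glycation end products and among the most specific AT1 transcripts (chr17:34597460-34600937, GRCm38), gave 16788 of the 48824 far counts of the 10 genes. Its level was 25.2 CP10k in the control lung, 18.1 far, 7.04 near and 4.78 within 100 µm. In the tumour it was 1.05 at the edge and 0.300 in the interior, or 5.80% and 1.66% of the far level. Every far spot but a few carried it (99.4% with a count, median 20.9 CP10k), and interior tumour spots had a median of 0.

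Most of the other genes followed Ager. Hopx (chr5:77086986-77115123), an atypical homeodomain protein without DNA binding of its own, was at 10.7 CP10k far, 3.10 within 100 µm and 0.25 in the tumour interior. Clic5 (chr17:44134762-44280169), of the chloride intracellular channel family and tied to the actin cortex, was at 3.06, 0.845 and 0.0334 CP10k in the same zones. These genes stood at 28.8% and 27.7% of their far levels within 100 µm, beside 26.4% for Ager.

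Akap5 (chr12:76324617-76334517), an anchor for protein kinase A, was at 1.18 CP10k far and 0.338 within 100 µm, from 24 counts, and 1 count lay in the tumour interior. Rtkn2 (chr10:67979566-68058429) was at 1.09 CP10k far and 0.310 within 100 µm, from 22 counts. It had 0 counts in the tumour interior, whose interval reaches 0.0615 CP10k or 5.65% of the far level. At these counts neither gene could be set apart from Ager: Rtkn2 stood at 28.4% (17.7 to 43.3) and Akap5 at 28.7% (18.3 to 43.0) within 100 µm.

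Igfbp2 (chr1:72824480-72852474), a secreted binder of insulin-like growth factors that marks mature AT1 cells, had the lowest share of its far level over all tumour spots of the 10 genes. It was at 5.70 CP10k in the control lung, 3.89 far, 1.64 near and 1.00 within 100 µm. Only 11 counts lay in the 98 tumour spots, or 1.67% of the far level (0.831 to 2.99). In the interior alone it was at 1.28%, from 3 counts, above Clic5 (1.09%) and Rtkn2 (0 counts). Per count of Ager it did not differ from far beyond counting error within 100 µm, at 0.97 times the far value. It was 0.32 times the far value in the tumour edge and 0.77 times in the interior, where the interval (0.0314 to 0.571 counts per Ager count) covers the far value of 0.215. In the group of 14 spots the tumour value rests on 1 count.

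**Figure D2:**
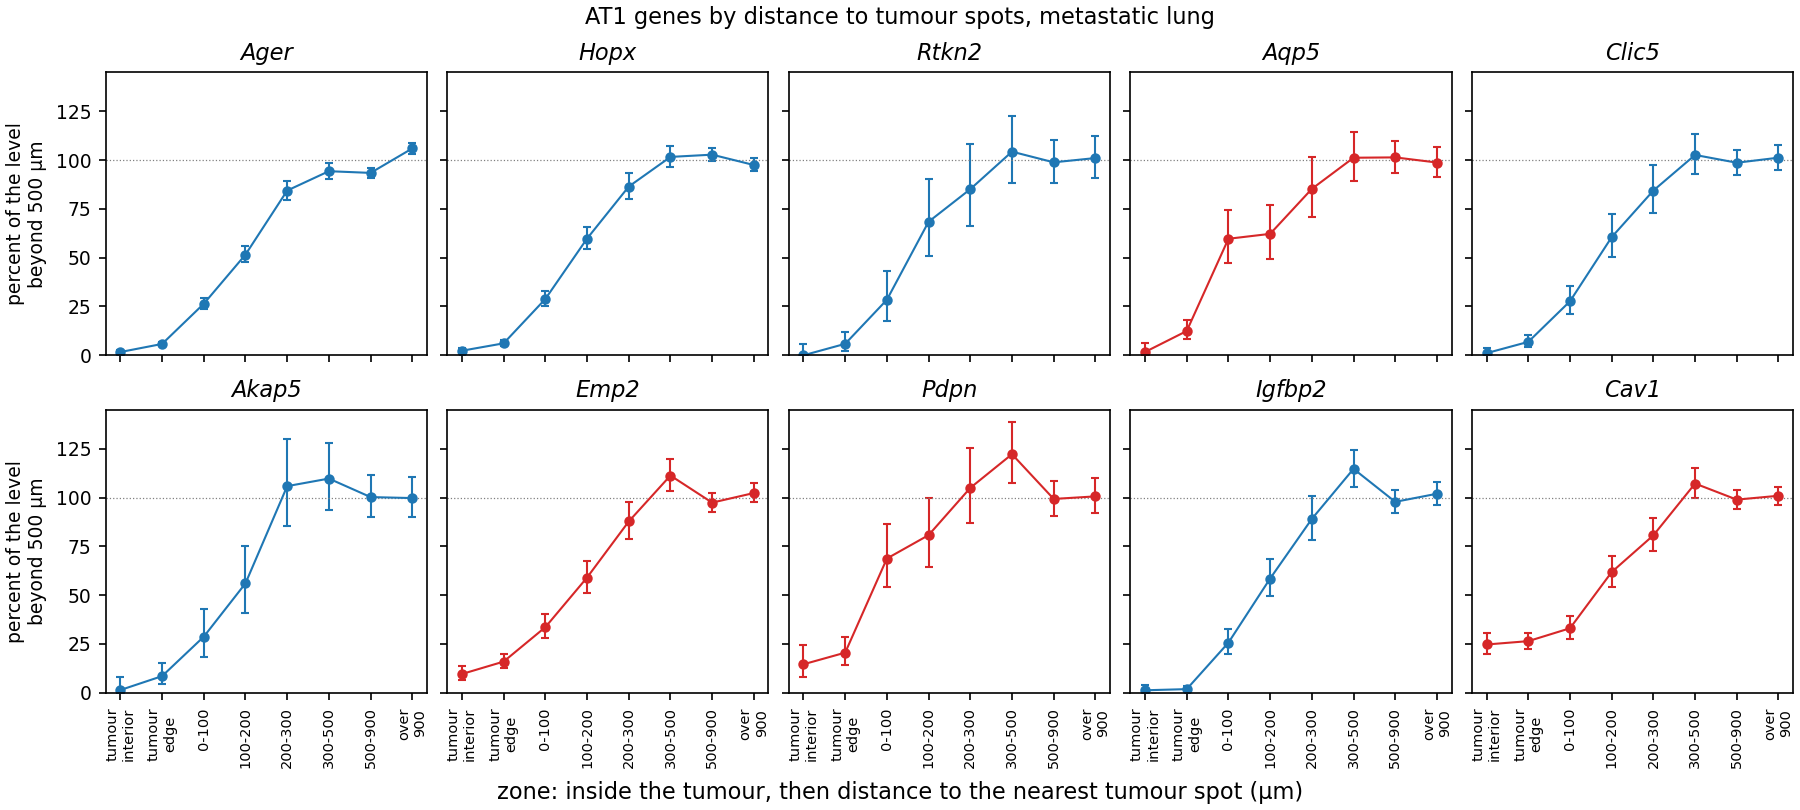
Level of each AT1 gene as percent of its level beyond 500 µm (vertical axis, 10 panels) in the tumour interior, the tumour edge and 6 rings of distance to the nearest tumour spot (µm); bars are exact 95% Poisson intervals and the dotted line is 100%. Pdpn and Aqp5 keep 68.8% and 59.7% within 100 µm, Cav1 is level at 24.7% to 26.5% through the tumour, and Emp2, also drawn in red, keeps 9.62% in the interior.

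Pdpn, podoplanin, a mucin-like membrane glycoprotein (chr4:143267409-143299564), was the gene least lowered beside the tumour. It was at 2.28 CP10k in the control lung, 1.60 far, 1.19 near and 1.10 within 100 µm. Its near level was 0.747 times the far level (0.633 to 0.877), against 0.389 (0.364 to 0.414) for Ager, and these intervals do not overlap. Within 100 µm 58.2% of spots had a Pdpn count, against 75.6% of far spots. Around the group of 80 spots it stood at 0.627 of the far level within 100 µm and around the group of 14 at 0.671, from 49 and 16 counts.

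Aqp5, the water channel of the apical membrane (chr15:99591028-99594829), was at 3.68 CP10k in the control lung, 1.98 far, 1.21 near and 1.18 within 100 µm. It stood at 59.7% of the far level within 100 µm (47.4 to 74.3) and at 62.2% at 100 to 200 µm. Unlike Pdpn it was nearly gone from the tumour interior, with 2 counts in 33 spots, or 1.68% of the far level (0.204 to 6.09), against 12.4% at the edge.

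Cav1, caveolin-1, the scaffold of caveolae (chr6:17306335-17341328), kept the highest share of its far level inside the tumour, with Pdpn next. It was at 5.81 CP10k in the control lung, 5.80 far, 2.74 near and 1.92 within 100 µm, or 33.1% of the far level in the innermost ring. Tumour edge and interior spots then held 1.53 and 1.43 CP10k, 26.5% (22.6 to 30.9) and 24.7% (19.8 to 30.6) of the far level. A Cav1 count was found in 78.8% of interior spots, against 36.4% for Ager. Pdpn stood at 14.6% (7.97 to 24.6) in the interior. Over all tumour spots Cav1 was at 25.9% (22.7 to 29.3) and Pdpn at 18.5% (13.6 to 24.5) of far, and the intervals of these genes overlap in both areas.

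Emp2, a tetraspan membrane protein (chr16:10281749-10313968), lay between. It was at 5.2 CP10k far, 1.75 within 100 µm, 0.831 at the tumour edge and 0.50 in the interior, which is 33.6%, 16% and 9.62% of the far level. Its level within 100 µm differed between metastases, at 0.244 of the far level around the group of 80 spots (0.187 to 0.313) and 0.516 around the group of 14 (0.368 to 0.704).

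A ratio of counts to Ager in the same spots does not depend on the library size. Within 100 µm, Pdpn per Ager count was 2.61 times and Aqp5 2.26 times the far value, Emp2 was 1.27 times and Cav1 1.25 times, and the other 5 genes lay between 0.97 and 1.09 times. Pdpn per Ager was 0.0883 (0.0837 to 0.0931) far and 0.230 (0.178 to 0.295) within 100 µm. In the tumour spots the order changed: Cav1 per Ager was 5.96 times the far value, Pdpn 4.26, Emp2 3.17 and Aqp5 1.99 times. In the interior Cav1 reached 4.78 counts per Ager count (2.85 to 8.44), against 0.320 far, on 86 and 18 counts.

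To see where other cells carried the genes away from tumour, the spots with the highest scores for each of 13 lists of markers of other cells (top 5%) were compared with spots rich in none of them. There were 36 such spots for each list among the far spots, set against 439, and 94 in the control lung, set against 998. Spots rich in one list can be rich in others too.

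Airway-rich spots, led by Scgb1a1 and ciliated cell genes, were the poorest in AT1 genes: all 10 were lower in both sections. How many of all genes were lower in these spots was not counted, so this is not shown to be particular to AT1 genes. Ager stood at 0.173 times the level of the reference spots far from tumour and at 0.0580 in the control lung. Aqp5 kept more, at 0.644 (0.541 to 0.764) and 0.320 (0.280 to 0.365), which per Ager count is 3.73 and 5.52 times the reference. Hopx per Ager was 1.72 and 2.76 times the reference, and Cav1 0.84 and 2.43. Aqp5 and Hopx were thus high beside Ager in airway-rich spots of both sections, while Cav1 was above the reference in the control lung and below it in the metastatic lung. The control value of Aqp5 per Ager depended on how many spots were taken, at 15.6 times with the top 2% and 2.76 times with the top 10%.

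Beside the tumour the airway list and Aqp5 were set side by side. At 100 to 200 µm they were nearly equal, at 59.8% and 62.2% of their far levels. Within 100 µm the list stood at 2.38%, a sum that Scgb1a1 (2.37%) dominates, and Aqp5 at 59.7%. Of the other airway markers in that ring, Scgb3a1, a secretoglobin, was highest at 45.7% of far, from 13 counts, and Dynlrb2 had 0 counts against 589 far. The part of airway cells in the Aqp5 level was not tested.

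Mesothelium-rich spots, which hold the cells that line the pleura, were high in Pdpn in the metastatic lung. The Pdpn level there was 3.44 CP10k against 1.62 in the reference spots, 2.13 times (1.74 to 2.58), while Ager was 1.33 times (1.24 to 1.43). In the control lung Pdpn was 1.29 times (1.14 to 1.45) and Ager 1.25 times (1.20 to 1.29), so no excess over Ager was seen there. Beside the tumour the summed mesothelium list was at 169% of its far level within 100 µm, with 5 of 6 markers above it. Msln was at 366% and Wt1 rests on 1 count, while Nkain4, the marker with most far counts (394), was at 63.0%. Of all 11154 genes with at least 50 counts, 4546 were higher there by at least 1.5 times, and the median log2 ratio was 0.40. The part of mesothelium in the Pdpn level was not tested.

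Adventitial fibroblast-rich spots, marked by Dcn, Dpt and Pi16, had Pdpn at 1.07 times the reference far from tumour (0.838 to 1.36), where Ager was at 0.695. In the control lung these values were 0.394 and 0.403. Pdpn per Ager was thus 1.54 times the reference in the metastatic section and 0.98 times in the control. The summed list was at 84.2% of far within 100 µm and 85.1% in the tumour interior, but its markers went opposite ways there. Decorin (Dcn) was at 302% of far and Serpinf1 at 144% in the interior, from 56 and 16 counts, whereas Dpt was at 51.2%, from 48 counts, and Pi16 at 4.99%, from 1 count. Among the 105 near spots, Pdpn was 1.48 CP10k in those with the higher score for these fibroblasts and 0.921 in the others, a ratio of 1.60 (1.17 to 2.22), and Ager 1.17 (1.03 to 1.33). The same split gave 1.99 for Akap5, 1.68 for Igfbp2, 1.61 for Clic5 and 1.5 for Cav1, so a ratio above that of Ager was not particular to Pdpn. Split by the aerocyte and large vessel lists, Pdpn differed more, at 2.32 and 2.29 times, as did Ager at 2.97 and 2.30 times. How much of the Pdpn came from fibroblasts was not tested.

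Lymphatic-rich spots showed no excess of Pdpn over Ager that exceeded counting error. Pdpn was 1.18 times (0.915 to 1.5) and Ager 1.10 times (1.02 to 1.18) the reference far from tumour, and 0.862 and 0.851 times in the control lung. The lymphatic list itself was 11.5 and 16.3 times higher in these spots. Of its markers, Ccl21a had 1731, Lyve1 752 and Prox1 9 counts in the far area. Within 100 µm of the tumour the list stood at 26.3% of its far level, and Prox1 and Reln had 0 counts.

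**Figure D3:**
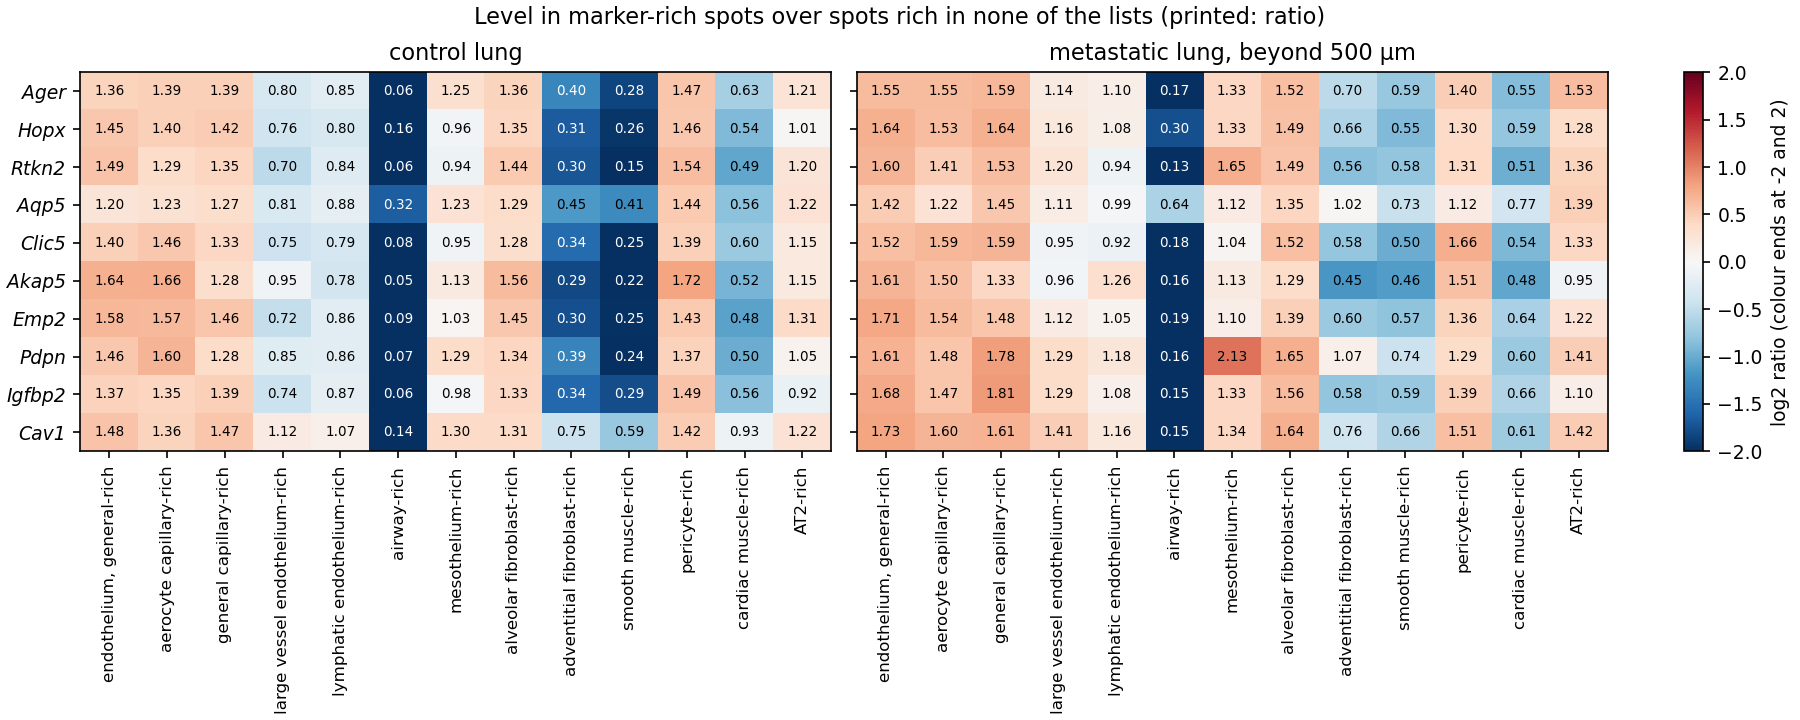
Ratio of each AT1 gene's level in spots rich in the markers of another cell type (columns) to its level in spots rich in none, in the control lung (left) and in the metastatic lung beyond 500 µm (right); the printed number is the ratio and the colour its log2. Airway-rich columns are the lowest, with Aqp5 the least reduced, and Pdpn in mesothelium-rich far spots is the highest of the right panel at 2.13.

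Endothelium-rich spots, marked by Cdh5, Pecam1 and other general endothelial genes, had all 10 genes above the reference in both sections. The same held for general capillary-rich spots, and how many of all genes were above the reference was not counted. In the endothelium-rich spots far from tumour, Cav1 was 1.73 times the reference (1.56 to 1.92) and Ager 1.55 times (1.45 to 1.64). In those of the control lung the values were 1.48 and 1.36 times. Cav1 per Ager was then 1.12 and 1.09 times the reference. It was higher elsewhere. In smooth muscle-rich spots of the control lung it was at 0.592 of the reference and Ager at 0.280, and in adventitial fibroblast-rich spots at 0.745 and 0.403. In large vessel-rich spots Cav1 was 1.12 times the reference in the control lung and 1.41 times far from tumour, against 0.799 and 1.14 for Ager.

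In the tumour interior Cav1 was at 24.7% of its far level, and the marker lists of cells that also carry it were at other values. The general endothelium list stood at 1.96% of far, with all 10 of its markers between 1 and 12 counts. General capillary markers were at 8.48%, lymphatic markers at 7.52%, large vessel markers at 6.65% and aerocyte markers at 3.43%. The smooth muscle list was at 3.82%, with 2 of 6 markers at 0 counts, and the adventitial fibroblast list at 85.1%. The source of this Cav1 was not tested, since the spots hold cancer cells, immune cells and stroma together.

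Among the cells around, AT1 genes were lowered about as much as endothelial genes and more than AT2 genes. Within 100 µm the AT1 sum stood at 31.0% of its far level, the endothelium list at 26.9%, the aerocyte capillary list at 25%, the alveolar fibroblast list at 17.7% and the AT2 list at 78.6%. The ratio of the AT1 sum to the AT2 sum was 0.39 times its far value in that ring, and the ratio to the endothelium 1.15 times. The AT1 to AT2 ratio was 0.63 times its far value at the tumour edge but 1.34 times in the interior. Sftpc dominates the AT2 sum, with 134181 of its 196203 far counts. Lists of other cells were higher there: macrophages and monocytes stood at 264% and proliferation genes at 1416% of far. The added counts of such cells lower the share of every other gene in a spot. The part of this in the AT1 levels was not tested. The alveolar transitional state list stood at 248% of far within 100 µm and at 2.20 times far in the tumour spots. It shares Krt8 and Sfn with the 4T1 list, and which cells carried it was not tested.

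**Figure D4:**
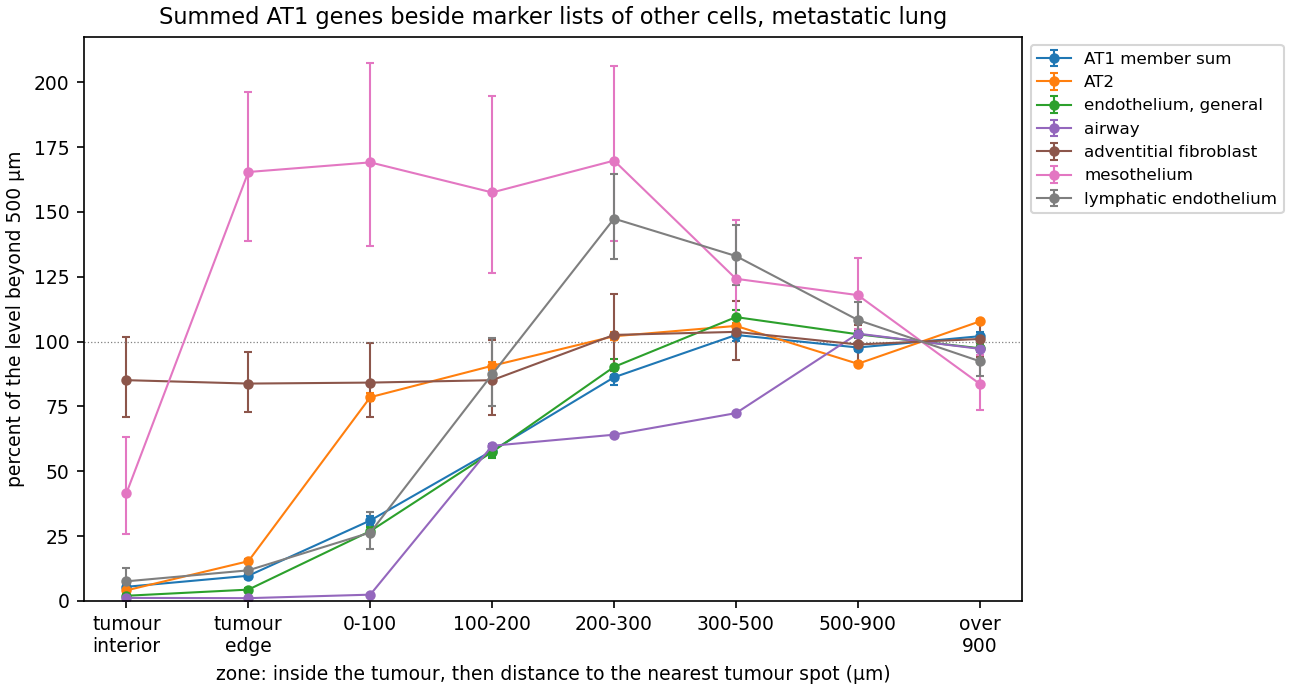
Summed counts of the 10 AT1 genes and of marker lists of other cells (coloured lines) as percent of their level beyond 500 µm, in the tumour interior, the tumour edge and rings of distance (µm), with 95% intervals. AT1 genes and endothelium run together down to 31.0% and 26.9% within 100 µm, AT2 genes are at 78.6% there, and mesothelium is at 169%.

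A further 18 genes of AT1 cells, chosen from common knowledge and outside the 10, were lower beside the tumour too, with a smaller median change. Unlike the 10, they were not left out when the tumour spots were found, so their levels are no independent support. Near spots had 13 of 18 lower by at least 1.5 times, against the 13.4% of all genes, and 1 higher, and their median log2 ratio was -0.85. The lowest were Sema3a, a guidance ligand (0.449 times far), Timp3, a metalloproteinase inhibitor (0.451), and Cyp2b10, a cytochrome P450 (0.468). The highest were Itgb6, the epithelial integrin subunit that activates TGF-β (1.63, from 29 near counts), Ndnf (0.829) and the keratin Krt7 (0.809). Itgb6 also belongs to the transitional state list. In the tumour 17 of 18 were lower by at least 1.5 times, as were all 10 of the main genes, where 25.5% of all genes were; the exception was the semaphorin Sema3e at 1.02.

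Far from tumour the summed level of the 10 genes was 0.772 times that of the control lung (0.765 to 0.780). Only Aqp5 was lower by at least 1.5 times (1 of 10, where 11.9% of 13421 genes were), at 0.539 (0.512 to 0.568). Ager was at 0.719, Igfbp2 at 0.683, Pdpn at 0.700, Emp2 at 0.773, Rtkn2 at 0.823, Hopx at 0.840, Akap5 at 0.848 and Clic5 at 0.931. Cav1 did not differ beyond counting error, at 0.998 (0.966 to 1.03). When abundant genes did not count toward the library size, Clic5 was at 1.03, Cav1 at 1.10 and the sum at 0.854. Cav1 was below 1 in 3 of 9 alternatives.

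The median log2 ratio was -0.33 over the 10 genes and -0.18 over all genes, and 8 of 10 lay below the all-gene median under either library size. Other lists differed between these areas too: AT2 was at 0.652 and the airway list at 1.53 times the control, general endothelium at 1.01, adventitial fibroblast at 0.467, neutrophils at 10.8 and cardiac muscle, which the control section contained at 32.8 CP10k, at 0.0181. Their part in the AT1 values was not tested.

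**Figure D5:**
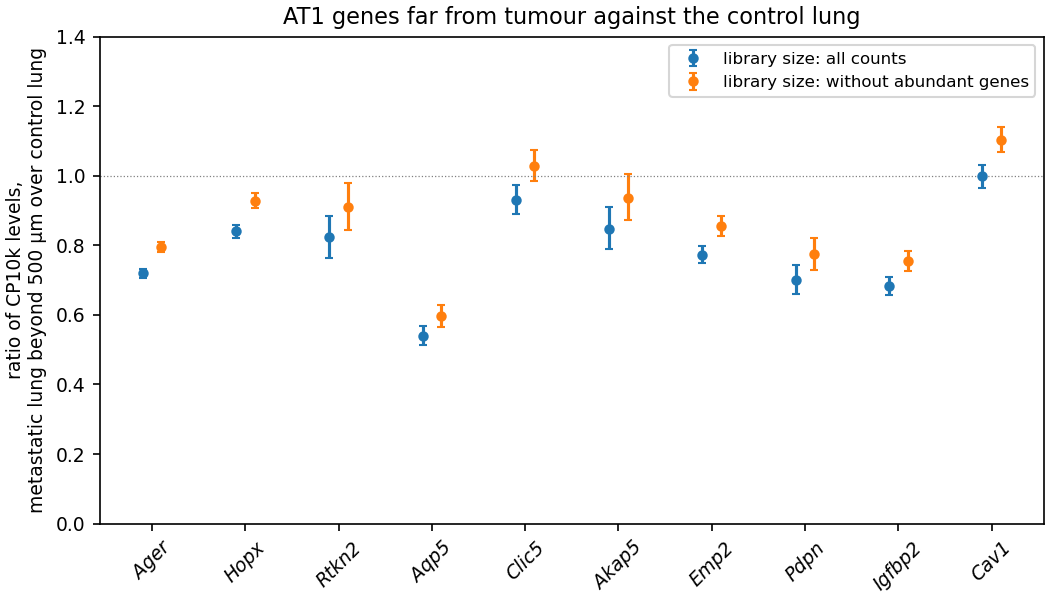
Ratio of each AT1 gene's level in the metastatic lung beyond 500 µm to the control lung (vertical axis, from 0), with all counts (blue) or without 454 abundant genes (orange) in the library size; bars are exact 95% intervals of the split of counts and the dotted line is 1. Aqp5 is lowest at 0.539, Cav1 lies at 0.998, and Clic5 and Cav1 reach 1.03 and 1.10 with the orange library size.

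The genes varied together over spots. The correlation of one gene with the sum of the other 9, on log1p CP10k over 725 far spots, ran from 0.23 for Aqp5 to 0.79 for Ager, and over 1888 control spots from 0.47 for Akap5 to 0.86 for Ager. Counts per spot differed too, with 23.2 per far spot for Ager and 1.5 for Akap5, but did not set the order. Aqp5, with 2.54 counts per far spot, was less correlated than Pdpn (0.46) and Akap5 (0.39), which have fewer. All these points share a library and neighbouring tissue.

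Among 4409 other genes, those most like the summed 10 over the control spots were Inmt (r = 0.83), Sftpc (0.81), Sparc (0.76), H2-D1 (0.76), Ace (0.75), Mfap4 (0.73), Egfl7 (0.73), Thbd (0.71), Tmsb4x (0.70) and Ramp2 (0.70). Over the 1012 non-tumour spots of the metastatic lung, Inmt, Ramp2, Ace, Thbd and Sftpc kept values from 0.75 to 0.81, and H2-D1 and Tmsb4x were at 0.48 and 0.40. Near tumour, Inmt of alveolar fibroblasts was at 0.312 and Ace of capillaries at 0.380 times far, and Thbd and Ramp2 of endothelium were at 0.310 and 0.358. These values lie below those of all 10 AT1 genes, which ran from 0.389 for Ager to 0.747 for Pdpn. Others of the list were higher: Egfl7 of endothelium was at 0.542, Mfap4 at 0.607, Sftpc at 0.832 and Sparc at 0.883 times far. The genes most like the AT1 sum were thus not lowered alike. H2-D1, a class I histocompatibility gene whose reads can be shared with close relatives, was at 1.72 times and Tmsb4x at 1.55 times.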

How the data were processed

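The deposited data were raw counts (unique molecules of each gene in each spot), which the authors made with Space Ranger 1.3.1 on mm10, with the array position of each spot over tissue. Counting on the array depends on permeabilization (18 minutes), and RNA can spread to neighbouring spots. The samples were grouped by their labels. Calculations ran in Python 3.11.15 (scikit-learn 1.9.0, scipy 1.17.1, numpy 2.4.6, matplotlib 3.10.9, pandas 2.3.3).

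Distances used the 100 µm pitch of the array. Tumour spots came from k-means with 5 clusters on 20 components of the 2000 most variable genes. Only the 10 genes were left out beforehand, so genes of the other lists could enter. Levels were pooled counts over pooled totals. Log2 ratios of single genes added 0.5 counts and needed at least 50 counts. Ratio intervals were tried on simulated pooled counts drawn from the Poisson model that they assume. Spread between spots was left out, so this does not show how well they hold for these sections. No doublet caller was run. Alternatives changed the tumour spots, library size, pooling, depth, distances and compartments. The genes, lists and rules were chosen with earlier results of these data known. The text names all 10 genes, the 3 highest and 3 lowest of the further AT1 genes, and the 10 genes most like the sum by the control correlation with at least 500 counts in each section. Marker genes named as examples of a list were picked for their values.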

Additional observations from a re-analysis of the deposited data

How the results depend on the processing

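The summed near over far ratio was below 1 under every alternative: 0.278 with tumour spots that have at least 3 tumour neighbours, 0.335 without abundant genes in the library size, 0.419 as a mean of single spots, 0.415 with spots thinned to 5000 counts, 0.310 within 100 µm, 0.371 without spots rich in other cells' markers, and 0.324 and 0.471 around each metastasis. The tumour over far ratio was 0.0726, 0.0560, 0.0720, 0.0700 and 0.0705 for the first 4 and the marker-rich alternative. The median log2 near ratio was -1.80 with at least 3 neighbours, -1.55 without abundant genes, -1.78 within 100 µm, -1.38 without marker-rich spots and -1.64 around the larger metastasis. The far over control ratio was 0.763 with 8 clusters, 0.854 without abundant genes, 0.786 as a mean of spots, 0.814 thinned, 0.789 beyond 900 µm and 0.781 without marker-rich spots. At a fold of 2, 0 of 10 genes were lower far than in the control, where 501 of all 13421 genes were. So small a share leaves little to read in the 0 of 10. Clic5 far over control turned to 1.03 without abundant genes and 1.00 when thinned, and Cav1 ran from 0.988 to 1.10 over the alternatives. The cause was not tested. Each gene stayed below 1 near over far in 11 of 11 alternatives. With at least 3 neighbours required, the dropped tumour spots within 200 µm of a kept one counted as near, which enters those near ratios. The alternative that takes tumour spots above the highest control spot by the 4T1 list found 0 spots and was not run. No paired analysis was possible because each condition has 1 section. Depth limits Rtkn2, Igfbp2, Akap5, Clic5 and Aqp5 in the tumour, with 7, 11, 12, 25 and 29 counts.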
